A study of Mus musculus with 12 samples.

Results

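The nuclear genes of the mitochondrial respiratory chain were described in mouse splenic B cells that differed in the transcription factor gene Foxp1 and in stimulation with IgM. Members were the genes whose symbol in the array annotation begins with Ndufa, Ndufb, Ndufc, Ndufs, Ndufv, Sdha to Sdhd, Uqcr, Cox4i, Cox5, Cox6, Cox7 or Cox8, which gave 73 of the 18193 genes named by a probe set that reads 1 gene. Grouped by symbol, they comprised 36 subunits of complex I, 4 of complex II, 8 of complex III and 17 of complex IV. Ndufa4 and Ndufa4l2 are thus counted under complex I, although the Ndufa4 protein is now placed in complex IV. The prefix Ndufa also took in 8 Ndufaf genes, which encode factors that help to build complex I and are not part of the finished complex. Of the 73, 66 were measured, meaning that their log2 value was above 4 on at least 3 of the 12 arrays.

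The respiratory chain is a series of protein complexes in the inner mitochondrial membrane. Complex I takes electrons from NADH and complex II takes them from succinate, both pass them through coenzyme Q to complex III, and complex IV hands them on to oxygen. Complexes I, III and IV pump protons, and ATP synthase uses the resulting gradient. Resting B cells are small and use little energy, and growth after antigen receptor engagement raises the demand for ATP and for mitochondrial mass.

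RNA was hybridised to 12 one-colour Affymetrix arrays, 3 for each of 4 groups. All cells were B220-positive B cells sorted from the spleens of mice on a mixed 129/Sv-C57BL/6 background. The genotypes were Foxp1flox/del, called deleted here, and Foxp1wt/flox, called control, so that every group carried at least 1 conditional (flox) allele. Cells of each genotype were kept for 4 h either with added IgM or without it. The labels do not say how or whether the conditional allele was recombined, the age or sex of the mice, or whether replicates came from separate animals. A p-value therefore reflects spread among these particular arrays, and that spread may be technical. In such bulk samples fewer cells of a type and less RNA per cell cannot be told apart.

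The arrays gave no check of the genotype labels through Foxp1 itself. Its 8 probe sets differed by -0.29 to 0.13 between groups labelled deleted and control without IgM and by -0.30 to 0.32 with it, and the groups overlapped for all 8. For the probe set used the difference was -0.03 in each case (limma adjusted p = 1 without IgM and 0.968 with it). Where the deleted part of the gene lies relative to these probe sets is not given in the labels, so "deleted" below means the genotype as labelled and not a measured loss of Foxp1 RNA. Of 8 listed B cell markers 7 were on the array as single genes, and all 7 were above 4 on all 12 arrays. Some granule and myeloid markers were also present. The mean over 8 neutrophil and granule markers ranged over arrays from 4.02 to 7.35 in control and 5.99 to 10.57 in deleted cells without IgM, and from 3.74 to 6.54 and 4.34 to 9.76 with it. The means over 6 macrophage and monocyte markers were 4.33 to 5.10 and 5.34 to 6.62 without IgM, and 4.08 to 4.74 and 4.78 to 6.51 with it, while Itgam of that list was below 4 on all arrays. The mean over 4 NK cell markers was 4.21 to 6.10 and 5.95 to 7.15 without IgM. Cd4 and Cd8a among 6 T cell markers, and 3 of 4 erythroid markers, were at or below 4 on all arrays, while Cd3d read up to 8.30 and the remaining erythroid marker, Alas2, up to 9.72. Arrays of a group correlated at 0.951 or more, except that replicate 3 of deleted cells with IgM correlated at 0.817 and 0.865 with its group mates. That array also had the lowest mean of 15 poly-A control probe sets, 5.84 against 6.77 to 8.97 on the other 11. Its 3′ minus 5′ control probe set difference was -0.395 for Gapdh and 0.508 for Actb. These lay within the ranges of the other 11, -0.463 to 0.046 and 0.323 to 0.900. Counts and medians below are therefore given with and without deleted IgM replicate 3, and values of single genes state the arrays used.

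The 66 measured genes included members of every complex. Probe sets differ in how well they bind, so a level says whether a gene was detected and is no measure of its abundance against another gene. The mean over 12 arrays was above 10 for 49 of the 66, against 25.5% of all 9293 genes tested. Among complex I subunits the means ran from 8.42 for Ndufb1 to 12.78 for Ndufa1, both accessory subunits. Among assembly factors they ran from 6.76 for Ndufaf5 to 9.97 for Ndufaf8. In complex II the range was 9.10 for Sdhc, a membrane anchor, to 11.33 for Sdhb, the iron-sulfur subunit. In complex III it was 9.76 for Uqcr11 to 12.86 for Uqcrb, both small subunits. In complex IV it was 3.07 for Cox6b2 to 14.15 for Cox6a1.

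The members at the array floor were mostly isoforms known from other tissues. The 7 that missed the filter were Cox4i2, an isoform of lung, with a mean of 2.63, Cox7a1 and Cox8b, known from heart and muscle, both at 2.23, Cox7b2 and Cox8c, known from testis, at 2.23 and 2.38, Ndufa4l2, a gene induced by low oxygen, at 2.23, and the single-gene probe set of Ndufb4 at 2.24. Ndufb4 is not thereby shown to be absent, since the 2 probe sets that name it together with Ndufb4b and Ndufb4c were at 11.22 and 11.33. Their widely expressed counterparts were well above the floor, with Cox4i1 at 13.24, Cox7a2 at 12.44, Cox8a at 10.04 and Ndufa4 at 11.47. The muscle isoform Cox6a2 was detected on all 12 arrays at a mean of 6.68, beside 14.15 for Cox6a1. The testis isoform Cox6b2 passed the filter through only 3 arrays, all of deleted cells, beside 12.58 for Cox6b1. A further 10 probe sets that name a member together with other genes were left out.

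Deleted IgM replicate 3 stood apart in these genes more than in the rest of the array. On it 61 of the 66 members lay below their value on every other array, against 29.2% of all genes tested. The median member lay 2.67 below the mean of its 2 group mates on the log2 scale, while the median of all genes lay 0.14 above. The gap was found in every complex, with medians of -2.78 for complex I subunits, -2.49 for assembly factors, -2.05 for complex II, -2.33 for complex III and -2.57 for complex IV.

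The assembly factor Ndufaf3 showed the largest gap. It lay at 8.16 and 7.64 on replicates 1 and 2 of deleted cells with IgM and at 4.32 on replicate 3. Ndufb7, an accessory subunit of the membrane arm, lay at 11.56, 11.06 and 8.04. These last values were below those of all 9 arrays of the other groups as well. In contrast, 4 members were higher on this array than the mean of its mates, namely Ndufaf4 by 0.29, Sdha, the flavoprotein subunit of complex II, by 0.44, Ndufs1, the largest iron-sulfur subunit of complex I, by 1.08, and Cox7c, a small subunit of complex IV, by 1.98. For Ndufaf4 this held on the probe set used but not on its second one, which was lower there than on both mates. A second Sdha probe set was also higher there, at 10.97 against 10.54 and 10.38. A dimmer Sdha probe set was lower, at 2.23 against 5.38 and 5.24.

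Members are compact genes, and genomic span moved with this array. The median span was 7576.5 bases for members and 22941 for all genes tested, from RefSeq on GRCm38.p6, and 36 of the 66 members fell in the shortest of 5 equal classes of span. The median gap of all genes to the group mates was -1.29 in the shortest class and 0.81 in the longest. Members lay at -2.67 in the shortest class and at -3.06 in the longest, which held 2 of them, and in every class they were lower than the class as a whole. The part of RNA quality, span or poly-A control level in this gap was not tested.

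**Figure D1:**
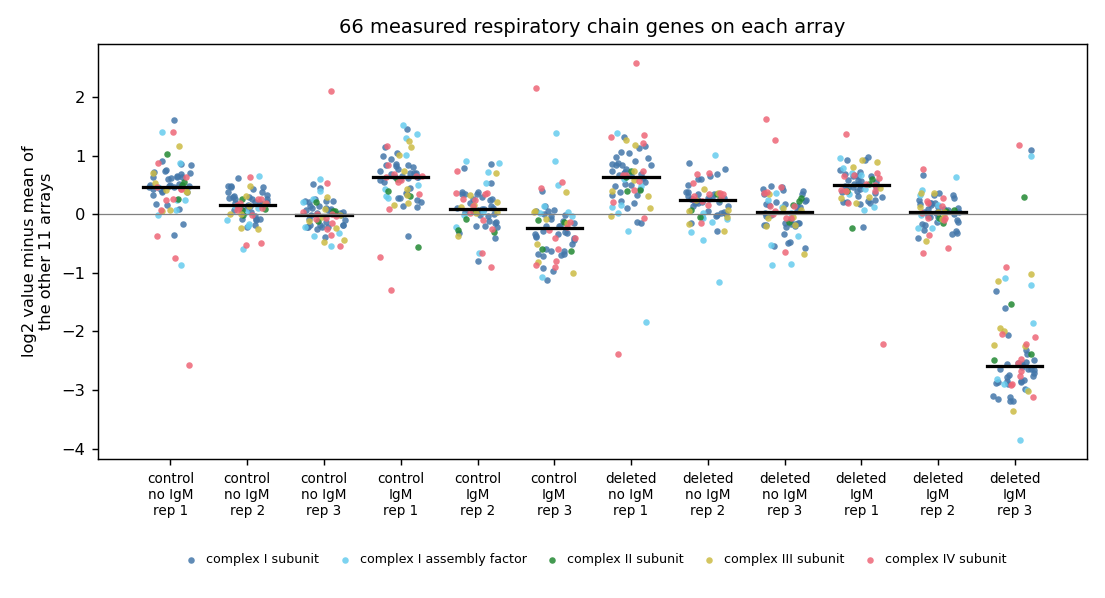
Log2 value of each of the 66 measured members on each array minus its mean over the other 11 arrays, with points coloured by complex and black lines at the medians. Deleted IgM replicate 3 lies far below the others, and replicate 1 lies highest in each group.

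A smaller pattern followed the replicate numbers that the labels give. In all 4 groups 52 of the 66 members were highest on replicate 1, against 19.2% of all genes tested. Replicate 1 held the highest value for 53 members in control cells without IgM, 60 with IgM, 59 in deleted cells without IgM and 58 with it. The poly-A control mean was ordered in the same way, at 8.97, 8.07 and 7.33 on replicates 1, 2 and 3 of control cells without IgM, 8.48, 7.66 and 6.77 with IgM, 8.60, 7.92 and 7.31 in deleted cells without IgM and 8.36, 7.91 and 5.84 with it. In the 3 groups without the outlying array, the shortest span class of all genes differed from its group mates by 0.24 to 0.28 on replicate 1 and by -0.30 to -0.21 on replicate 3. The part of these quality measures in the pattern was not tested. Cox7c and Ndufs1 went against the majority, with their lowest value on replicate 1 in every group.

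The Cox7c probe set varied most between replicates of a group. It read 3.37, 5.83 and 7.66 on replicates 1, 2 and 3 of control cells without IgM and 4.55, 6.41 and 7.70 with it. In deleted cells it read 3.54, 5.98 and 7.22 without IgM and 3.69, 5.99 and 6.82 with it. Each group thus spanned more than 3 log2 units in the same order of replicate numbers, and the 4 groups overlapped throughout. The least variable members were Uqcrc2, a core subunit of complex III, with a mean SD of 0.08 over the 3 groups that lack the outlying array, Cox5a (0.08) and Sdha (0.11). What replicate number stands for is not given in the labels, and its part in the results was not tested beyond the fit with number as a block.

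The next comparisons asked how the genes responded to IgM. In control cells the assembly factor Ndufaf4 was called higher with IgM and Sdha lower in the fit of all 12 arrays. How many members passed depended on the outlying array and on the pairing. With replicate number as a block and that array left out, 28 were called, against 63.2% of all genes. With all 12 arrays, limma (Benjamini-Hochberg adjusted p under 0.05 over all genes) called 2 of 66 members, 1 higher and 1 lower, against 20.7% of all genes tested, 8.71% higher and 12% lower, and 3 had an unadjusted p under 0.05. Groups did not overlap for 7 members that were higher and 7 that were lower, against 21% and 24.5% of all genes. The median log2 difference was -0.08 for members and -0.05 for all genes. Leaving out the outlying array did not change a control value but narrowed the shared spread: the median member's 95% interval had a half-width of 1.35 with that array and 0.60 without it. Without it 11 of 66 members were called, 7 higher and 4 lower, against 36.1% of all genes, 16.6% higher and 19.5% lower. Without all arrays of replicate 3 the count was 7, and without all of replicate 2 it was 0, with the share of all genes not counted for either.

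Ndufaf4 acts with Ndufaf3 in building the arm of complex I that passes electrons to coenzyme Q. It lay at 8.80, 9.06 and 9.30 on replicates 1 to 3 of control cells without IgM and at 10.53, 10.44 and 10.88 with IgM. In deleted cells it lay at 7.92, 8.53 and 8.82 without IgM and at 10.24, 10.18 and 10.50 with IgM. On this probe set all 6 IgM arrays were above all 6 arrays without it, including the outlying array. The rise in control cells was 1.56 ± 0.26 (SE, n = 3 per group, limma adjusted p = 0.00192), a 2.95-fold increase. In deleted cells it was 1.89 ± 0.26 (SE, n = 3 per group, limma adjusted p = 0.000812), and 1.79 ± 0.27 without the outlying array (limma adjusted p = 0.00119). A second Ndufaf4 probe set gave rises of 1.77 and 1.58 (limma adjusted p = 0.00568 and 0.0107), but read 9.33 on the outlying array, below its mates at 10.21 and 10.49 and below 1 control array without IgM at 9.39. The call was lost in both genotypes without all arrays of replicate 2 (limma adjusted p = 0.0895 and 0.0704).

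Sdha carries the flavin of succinate dehydrogenase and so serves both complex II and the tricarboxylic acid cycle. It read 10.95, 10.95 and 10.77 on control arrays without IgM and 10.21, 10.43 and 10.13 with it. In deleted cells it read 11.09, 11.03 and 10.97 without IgM and 10.50, 10.58 and 10.98 with it. The control groups did not overlap, and in deleted cells only the outlying array lay within the range of the unstimulated group. In control cells Sdha fell by 0.63 on the log2 scale (SE 0.19, n = 3 per group, limma adjusted p = 0.0362). This call was lost when any 1 control array or any 1 deleted array without IgM was left out, when all arrays of replicate 1 or 2 were left out (limma adjusted p = 0.316 and 0.298) and when probe sets were averaged (0.0933), whereas without the outlying array the limma adjusted p was 0.00399. A second Sdha probe set gave -0.94 (limma adjusted p = 0.0116). In deleted cells the difference was -0.35 ± 0.19 (SE, n = 3 per group, limma adjusted p = 0.233), and -0.49 ± 0.14 without the outlying array (limma adjusted p = 0.0308).

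Further members passed in control cells once the outlying array was left out. Of the risers besides Ndufaf4, 3 belong to complex I, namely the assembly factors Ndufaf6 and Ndufaf2 and the subunit Ndufa12, which resembles Ndufaf2 and takes its place late in assembly. Ndufaf6 rose by 1.19 ± 0.20 (SE, n = 3 per group, limma adjusted p = 0.00142 without the array, 0.122 with it, 0.0368 with it and replicate number as a block, where 3 members passed against 35.5% of all genes). Ndufaf2 rose by 0.93 ± 0.27 and Ndufa12 by 0.68 ± 0.19 (limma adjusted p = 0.024 and 0.02 without the array). The other risers were Cox6a2 by 1.09 ± 0.29, the complex III subunit Uqcrq by 0.90 ± 0.25 and the complex IV subunit Cox5a by 0.40 ± 0.14 (limma adjusted p = 0.0156, 0.0184 and 0.046). Together the assembly factors had 3 rises and 1 fall among 8 genes without the array, and the 58 measured subunits had 4 rises and 3 falls.

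Uqcrq illustrates the difference between the arrays. It lay at 11.68, 11.40 and 11.23 in control cells without IgM and at 12.77, 12.28 and 11.98 with it. In deleted cells it lay at 11.60, 11.37 and 11.01 without IgM and at 12.48, 11.97 and 9.81 with it. Both groups with IgM were above both groups without it apart from the last value, that of the outlying array. Ndufa12 showed the same layout, at 11.93, 12.28 and 11.88 against 12.81, 12.87 and 12.44 in control cells and at 11.94, 12.13 and 11.58 against 12.67, 12.70 and 9.72 in deleted cells. Its probe set carries the suffix x, by which the manufacturer marks possible binding to other transcripts, and another 2 Ndufa12 probe sets well above the floor gave control differences of 0.65 and 0.76. The remaining one was near the detection limit of 4 and is not used.

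Besides Sdha, 3 members fell in control cells without the outlying array. Cox7a2l, which can join complexes III and IV into supercomplexes, read 12.81, 12.10 and 11.998 without IgM and 11.59, 10.92 and 10.72 with it, with no overlap. It fell by 1.22 (SE 0.33, n = 3 per group, limma adjusted p = 0.0179 without the outlying array, 0.217 with it). In deleted cells it read 12.73, 12.15 and 11.94 without IgM and 11.69, 10.91 and 8.66 with it. Again the groups did not overlap, and the difference was -0.97 ± 0.37 without the outlying array (limma adjusted p = 0.0885) and -1.85 ± 0.63 with it (limma adjusted p = 0.0646). The blocked fit gave a limma adjusted p of 3.52e-05 without the array and 0.00947 with it. Its other 2 probe sets gave -1.17 and -1.21 in control cells, and the one used also carries the suffix x.

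Ndufaf3, the partner of Ndufaf4, moved the other way. It read 9.13, 8.44 and 8.40 in control cells without IgM and 8.14, 7.24 and 6.87 with it, and fell by 1.24 (SE 0.39, limma adjusted p = 0.0337 without the outlying array, 0.351 with it). In deleted cells its difference was -0.72 ± 0.44 without the array (limma adjusted p = 0.278), and -0.96 with the block as well (limma adjusted p = 0.00187). Ndufb11, a subunit of the membrane arm, fell by 0.68 in control cells (SE 0.24, limma adjusted p = 0.0473 without the array, 0.554 with it).

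**Figure D2:**
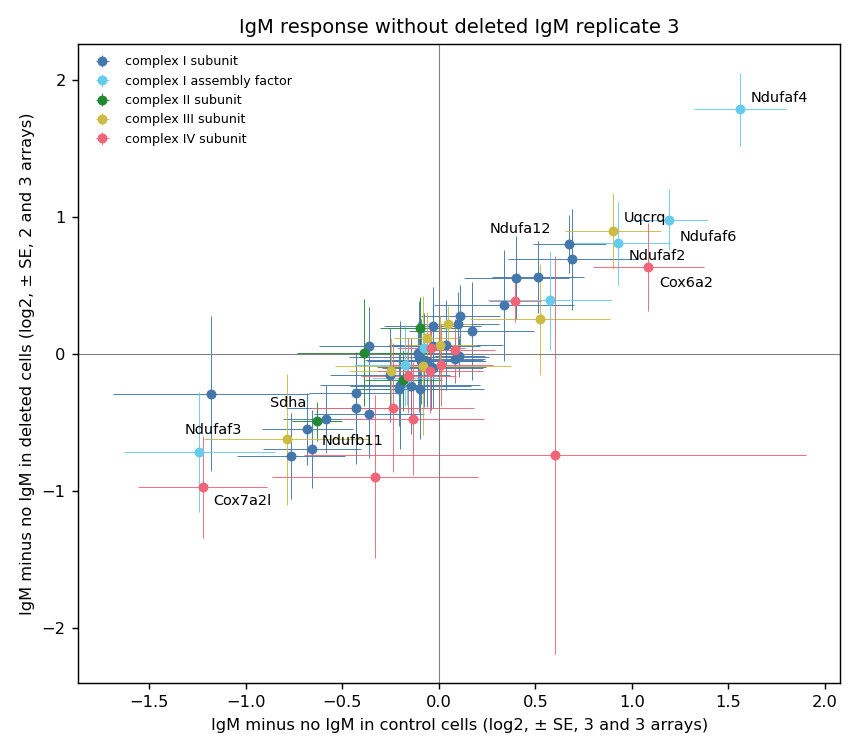
Fitted log2 difference between IgM and no IgM in control cells (x axis) and deleted cells (y axis) without deleted IgM replicate 3, with standard errors and points coloured by complex. Ndufaf4 lies at 1.56 and 1.79 in the upper right corner, and Cox7a2l at -1.22 and -0.97 in the lower left.

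The promoters of 4 members that moved are shown, so that their sequence can be set beside their response: Ndufaf4 and Ndufa12 as risers, Sdha and Cox7a2l as fallers. Each line gives the 250 bases before the annotated start, 5′ to 3′ on the strand of the gene, from RefSeq on GRCm38.p6. The regions are chr4:24897833-24898082 (+) for Ndufaf4, chr13:74350241-74350490 (-) for Sdha, chr10:94198785-94199034 (+) for Ndufa12 and chr17:83514334-83514583 (-) for Cox7a2l. Capitals mark matches on either strand to 4 searched motifs, and all matches found here were to that of NRF1, a regulator of nuclear genes for mitochondria.
Ndufaf4: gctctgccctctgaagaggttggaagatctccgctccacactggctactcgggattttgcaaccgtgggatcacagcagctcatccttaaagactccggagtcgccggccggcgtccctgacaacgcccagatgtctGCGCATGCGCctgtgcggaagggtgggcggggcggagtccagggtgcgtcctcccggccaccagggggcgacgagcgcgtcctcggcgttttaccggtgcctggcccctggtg
Sdha: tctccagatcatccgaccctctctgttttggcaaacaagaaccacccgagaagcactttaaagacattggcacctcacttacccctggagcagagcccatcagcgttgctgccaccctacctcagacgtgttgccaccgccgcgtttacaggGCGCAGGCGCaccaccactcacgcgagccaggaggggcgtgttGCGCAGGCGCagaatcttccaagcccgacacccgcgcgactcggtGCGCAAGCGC
Ndufa12: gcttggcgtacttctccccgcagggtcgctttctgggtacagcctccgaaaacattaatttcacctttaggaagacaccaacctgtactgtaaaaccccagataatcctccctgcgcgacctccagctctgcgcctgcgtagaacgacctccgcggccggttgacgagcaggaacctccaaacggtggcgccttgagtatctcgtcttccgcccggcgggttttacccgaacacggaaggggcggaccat
Cox7a2l: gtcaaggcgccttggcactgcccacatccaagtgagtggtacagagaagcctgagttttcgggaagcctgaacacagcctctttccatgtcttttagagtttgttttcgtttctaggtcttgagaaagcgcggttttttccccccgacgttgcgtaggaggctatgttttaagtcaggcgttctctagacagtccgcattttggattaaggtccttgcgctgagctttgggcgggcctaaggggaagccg

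The motifs were searched on both strands in windows from 250 bases before to 50 after the start, which RefSeq gave for 59 of the 73 members. The NRF1 motif, read here as GCGC, any base and then TGCGC, was in 18.6% of the 59 windows, in 12.2% of the 7645 windows of genes tested and in 4.82% of all 27025 windows. The ETS motif bound by GABPA, CCGGAAG, was in 22.0%, 21.4% and 9.14% of these sets, and that of YY1, AAGATGG directly followed by CGG, in 6.78%, 2.59% and 0.9%. The E-box CACGTG, bound by Myc and Max, was in 2 of the 59, 841 of the 7645 and 1956 of the 27025. In the sequences above, the riser Ndufaf4 has 1 stretch that reads as the NRF1 motif on both strands and the faller Sdha has 3 matches, while Ndufa12 and Cox7a2l have none of the 4 motifs. A match is a description of the letters and not a binding site.

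In deleted cells the response to IgM depended on the outlying array. With all 12 arrays limma called Ndufaf4 alone among the 66 members, against 19% of all genes tested, 9.78% higher and 9.21% lower, and 8 had an unadjusted p under 0.05. The median member lay at -0.90 and 62 of 66 were below 0 (all genes: median -0.08). With replicate number as a block 12 were called, 1 higher and 11 lower, against 36.7% of all genes, 17.3% higher and 19.3% lower. The 11 included Ndufaf3 (-1.91), Cox7a2l (-1.85), the accessory subunits Ndufa6 (-1.67) and Ndufv3 (-1.51), and Uqcrh (-1.65), the hinge protein of complex III, in a fit that includes the outlying array. Without deleted IgM replicate 1 the count was also 12, with 1 rise and 11 falls, and without all arrays of replicate 3 it was 6, with 3 of each. The share of all genes called was not counted for these omissions, so these counts are no result about the members.

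Without the outlying array the median member lay at -0.048 and the median of all genes at -0.06, and 5 of 66 were called, 4 higher and 1 lower, against 25.7% of all genes, 12.9% higher and 12.8% lower. Ndufaf4, Ndufaf6 (0.98 ± 0.22), Ndufa12 (0.80 ± 0.21) and Uqcrq (0.90 ± 0.28) rose, and Sdha fell (limma adjusted p of the 5 from 0.00119 to 0.0403, SE from 2 arrays with IgM and 3 without). All 5 were among the 11 called in control cells, of which they made up 45.5%. The matching share of all genes was not counted. Ndufaf2 had a difference of 0.81 (limma adjusted p = 0.08), Cox5a of 0.39 (0.0933), Cox6a2 of 0.64 (0.187) and Ndufb11 of -0.55 (0.168), each in the direction seen in control cells. These differences set IgM replicates 1 and 2 against resting replicates 1 to 3 of deleted cells. Of the 66 members 51 were below both group mates on resting replicate 3, against 41.4% of all genes. Within the remaining pairs 41 members were lower with IgM in both and 19 higher, against 48.5% and 38.9% of all genes. In the blocked fit Ndufaf2, Cox5a and Ndufb11 were called in deleted cells too (limma adjusted p = 0.00424, 0.0208 and 0.000789), and Cox6a2 was not (0.187). With the outlying array Ndufa12 (-0.19), Ndufaf2 (-0.30), Cox5a (-0.34) and Cox6a2 (-0.22) had the opposite sign in deleted cells, and Ndufaf6 and Uqcrq lay at 0.25 and 0.09.

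**Figure D3:**
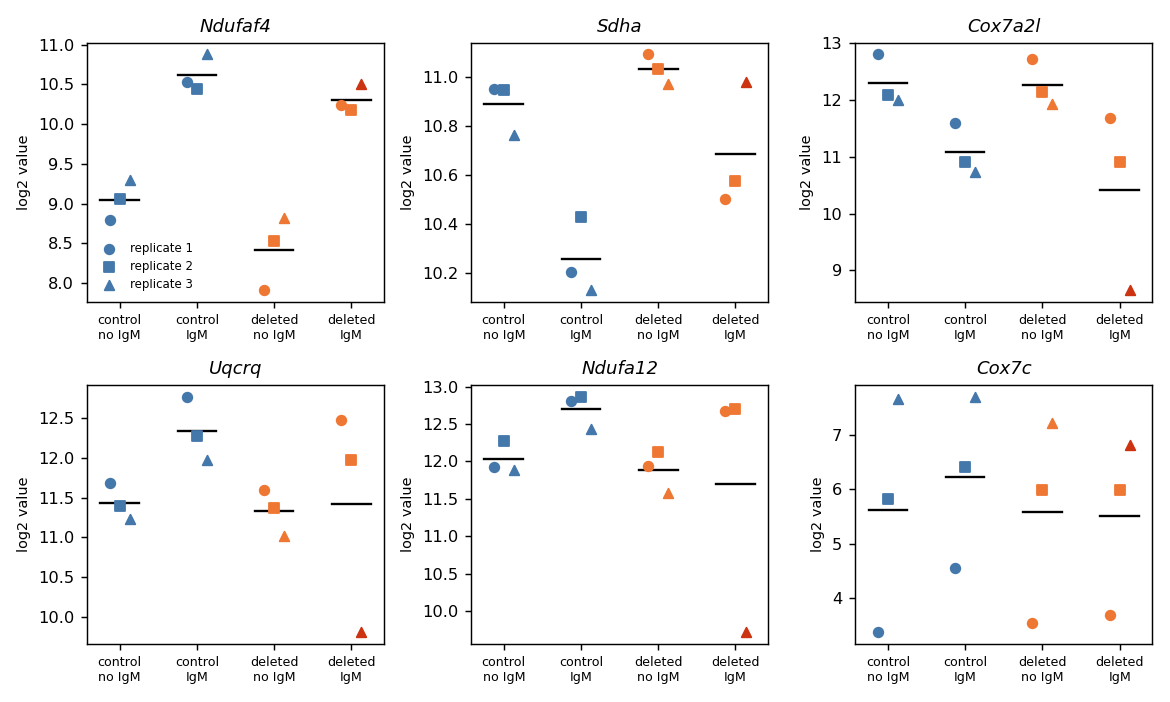
Log2 value of 6 members on every array by group, with marker shape for the replicate number, black lines at group means and deleted IgM replicate 3 in red. Ndufaf4 is above 10 on all arrays with IgM, and the red point is far below its mates for Cox7a2l, Uqcrq and Ndufa12 but not for Ndufaf4, Sdha or Cox7c.

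Same-numbered arrays gave a finer view of these responses. With replicate number as a block and the outlying array left out, 28 members were called in control cells, 14 higher and 14 lower, against 63.2% of all genes (29.5% higher, 33.7% lower). In deleted cells 28 were called, 9 higher and 19 lower, against 53.5% (24.3% higher, 29.2% lower). In this fit 21 members were called in the same direction in both genotypes, 9 higher and 12 lower, or 75.0% of each list. The matching share of all genes was not counted, so this overlap is no result about the members. Over the 5 pairs of arrays with the same number, genotype and an unaffected IgM array, 15 members were higher with IgM in all 5 and 22 lower in all 5, against 32.0% and 38.0% of all genes. The 15 included Ndufab1, the acyl carrier subunit of complex I, Ndufa5, Ndufb6 and Uqcr10. The 22 included Ndufb1, a membrane-arm subunit, with a median of -0.89 over the pairs (range -1.49 to -0.58), Ndufa6 (median -0.84), Uqcrh (-0.79) and Ndufv3 (-0.77). When the sixth pair was added, Ndufaf4 alone was higher in all 6 and 21 members (31.8%) were lower in all 6, against 22.8% and 27.0% of all genes.

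Other conserved or catalytic subunits were followed as well, and whether they passed depended on the pairing. In control cells without the outlying array the 95% interval of the IgM difference was -0.27 to 0.43 for Ndufs1, -0.94 to 0.21 for Ndufv1, which binds NADH, -0.63 to 0.26 for Sdhb and -0.45 to 0.32 for Uqcrc1, a core subunit of complex III. It was -0.42 to 0.43 for Uqcrfs1, the Rieske iron-sulfur protein, -0.71 to 0.40 for Cox4i1 and -0.37 to 0.54 for Cox5b. None of these 7 was called in either genotype in that fit or with all 12 arrays. With replicate number as a block and the array left out, Ndufv1 was called lower in control cells (-0.36, interval -0.60 to -0.12, limma adjusted p = 0.0159), and Sdhb (-0.25) and Cox4i1 (-0.28) were called lower in deleted cells (limma adjusted p = 0.036 and 0.0374).

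The genotype comparisons asked how deleted cells differed from control cells. Without IgM no member passed in limma with all 12 arrays, against 2.85% of all genes tested, and 2, Ndufaf4 and Cox6b2, had an unadjusted p under 0.05. The median was 0.04 for members and 0.0025 for all genes, with 38 members above 0 and 28 below. The result was also 0 without the outlying array, against 5.93% of all genes, with 2 again at an unadjusted p under 0.05. Groups did not overlap for 2 members that were higher, Cox6b2 and Sdha, and 2 that were lower, Cox5a and Ndufaf1, against 10.3% and 8.55% of all genes. Within same-numbered pairs 28 members were higher in deleted cells in all 3 pairs and 15 lower in all 3, against 2602 and 2495 of the 9293 genes.

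Cox6b2 was at the array floor in control cells without IgM, at 2.73, 2.59 and 2.57, and read 5.44, 3.31 and 4.23 in deleted cells. With IgM it read 2.40, 2.24 and 2.24 in control and 4.33, 2.54 and 2.24 in deleted cells, which overlapped. The gene entered the test only through 3 deleted arrays on which it was above 4, so its fitted difference and p carry no weight as support, and it is given as a description. Blocking on replicate number called 1 member, which was Cox6b2, against 6.89% of all genes. Markers of other cells also differed between genotypes, in both directions. Alas2, an enzyme of haem synthesis in erythroid cells, read 5.77 to 6.57 in control and 6.82 to 9.72 in deleted cells without IgM, and the macrophage marker Adgre1 read 5.61 to 6.27 and 4.15 to 4.97. The granule genes Mpo, Elane and Prtn3 were higher in deleted cells without IgM, with no overlap. Mpo read 7.72 to 10.24 in control and 11.15 to 13.06 in deleted cells. S100a8, S100a9, Ltf, Camp and Ngp of that list overlapped between genotypes. In the macrophage and monocyte list Csf1r, Lyz2 and Cd14 were also higher with no overlap, Cd68 overlapped, and only Adgre1 was lower. The part of such cells in the genotype differences was not tested.

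Ndufaf4 was lower in deleted cells without IgM by -0.63 ± 0.26 (SE, n = 3 per group), which did not pass (limma adjusted p = 0.374, or 0.199 without the outlying array). With the outlying array left out and replicate number as a block, 3 members were called, against 21.6% of all genes: Ndufaf4 (-0.63, limma adjusted p = 0.0157), Cox6b1 (0.68, adjusted p = 0.0043) and Cox6b2, whose call rests on the filter as above. Cox6b1 read 13.01, 12.64 and 12.24 in control cells and 13.81, 13.22 and 12.92 in deleted cells, higher within each number although the groups overlapped. Ndufaf1, another assembly factor, differed by -0.24 ± 0.27 (limma adjusted p = 1, or 0.493 without the outlying array).

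With IgM the direction of the members turned on the outlying array and on the pairing. With all 12 arrays the median was -0.76, with 63 of 66 below 0, against a median of 0.08 for all genes, yet no member was called in limma, against 1.72% of all genes, and 2 had an unadjusted p under 0.05. Without the array the median was 0.11, with 47 of 66 above 0, against 0.03 for all genes, and again limma called no member, against 2.35% of all genes, with 0 at an unadjusted p under 0.05. With replicate number as a block and all 12 arrays no member was called either, against 6.76% of all genes. Leaving out that array alone removes a replicate 3, on which most members were low, from 1 group only. With replicate number as a block as well, the median was -0.024, with 27 members above 0 and 39 below, and in replicates 1 and 2 alone 39 members were lower in deleted cells in both pairs and 11 higher, against 31.9% and 39.5% of all genes. By complex, the medians with all arrays, without the array, and without it but blocked were -0.78, 0.11 and -0.021 for complex I subunits, -0.79, -0.14 and -0.19 for assembly factors, and -0.40, 0.24 and 0.16 for complex II. They were -0.72, 0.16 and 0.0066 for complex III and -0.77, 0.11 and -0.037 for complex IV.

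The members with the smallest p with IgM were Ndufaf6, Sdha, Cox5a and Ndufaf2. Ndufaf6 read 8.74, 8.28 and 8.32 in control and 8.09, 7.86 and 5.77 in deleted cells, with no overlap, a difference of -1.20 ± 0.50 (limma adjusted p = 0.313), or -0.47 ± 0.22 without the outlying array (0.419). With the array left out and replicate number as a block its difference was -0.58 (limma adjusted p = 0.0135), the only member called there, against 13.2% of all genes. Sdha differed by 0.43 ± 0.19 (limma adjusted p = 0.346), Cox5a by -0.88 ± 0.47 (0.443) and Ndufaf2 by -1.35 ± 0.73 (0.446). Without the array these were 0.28, -0.15 and -0.24.

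The interaction, which subtracts the genotype difference of resting cells from that of cells given IgM, followed the same array. Its median was -0.86 for members with all 12 arrays (all genes 0.07) and 0.027 without the outlying array (all genes 0.04). The latter fit again leaves replicate 3 out of 1 group only. Limma called no member in either fit, against 0.108% and 0.172% of all genes, and 0 had an unadjusted p under 0.05 in either. The members with the smallest p were Cox6a2 (-1.31), Ndufaf6 (-0.95), Cox6b1 (-1.31) and Ndufs7 (-0.93) with all 12 arrays. Without the outlying array these lay at -0.45, -0.21, -0.34 and -0.12. For Ndufaf4 the interaction was 0.23 without the array, with a 95% interval of -0.58 to 1.03, and for Sdha 0.14, with an interval of -0.29 to 0.57. These intervals do not show that the genotypes respond alike.

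**Figure D4:**
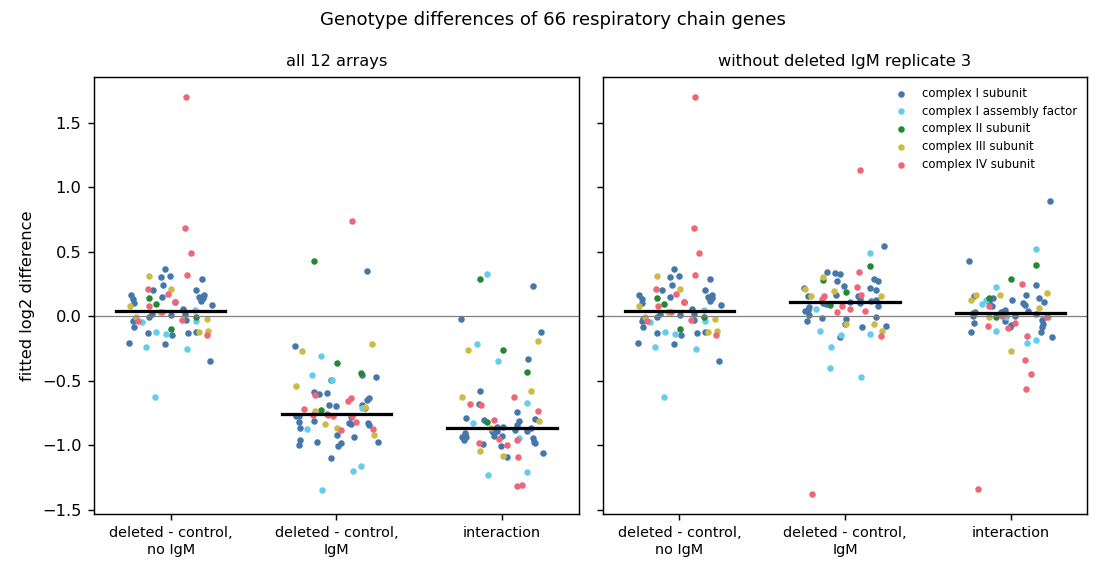
Fitted log2 differences of the 66 members for both genotype comparisons and the interaction, with all 12 arrays (left) and without deleted IgM replicate 3 (right), black lines at the medians and colours by complex. The medians with IgM move from -0.76 to 0.11 and those of the interaction from -0.86 to 0.027 when the array is left out.

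Other genes of mitochondria were read from lists chosen by function, with values from the fit without the outlying array. Deleted cells with IgM are there replicates 1 and 2, set against replicates 1 to 3 of other groups. In that fit 16.6% of all genes were called higher and 19.5% lower with IgM in control cells, and 12.9% and 12.8% in deleted cells. With replicate number as a block as well, these shares were 29.5% and 33.7% in control and 24.3% and 29.2% in deleted cells. With all 12 arrays and no block they were 8.71% and 12%, and 9.78% and 9.21%. Of 24 measured genes of protein import into mitochondria 12 rose and 0 fell in control cells and 10 rose and 0 fell in deleted cells, with medians of 0.53 and 0.50 (all genes -0.05 and -0.06). In control cells Timm9, a chaperone of the intermembrane space, rose by 1.66, Timm8a1 by 1.46, and Tomm40, the pore of the outer membrane, by 1.03. In deleted cells they rose by 1.40, 1.81 and 1.27. Tomm40 in control cells and all 3 in deleted cells did not pass with all 12 arrays (limma adjusted p from 0.0658 to 0.155). With all 12 arrays 3 and 2 genes of this list rose and 0 fell, and with the array left out and replicate number as a block 18 and 15 rose and 1 and 0 fell.

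Genes of mitochondrial DNA and its expression formed the next list. Of 20 measured, 9 rose and 1 fell in control cells and 8 rose and 1 fell in deleted cells, and with all 12 arrays 5 and 6 rose and 1 fell in each. The blocked fit without the outlying array gave 10 rises and 3 falls in each. Top1mt, the mitochondrial topoisomerase, rose by 2.09 and 2.70, the helicase Twnk by 1.18 and 1.37, and the transcription factor Tfb2m by 0.69 and 0.72, while Polg2, the accessory subunit of the mitochondrial DNA polymerase, fell by 1.34 and 2.05. Between genotypes without IgM, Polg2 was higher in deleted cells by 1.36 and Top1mt lower by -1.38 (limma adjusted p = 0.0086 and 0.0147, or 0.0196 and 0.0215 with all 12 arrays).

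Lists of partners of the chain were counted in the same fits, for which the shares of all genes are given above. With all 12 arrays at most 2 genes rose and at most 2 fell in each of these lists and genotypes. Without the outlying array, of 39 measured assembly factors outside the prefixes 7 rose and 3 fell in control cells. In deleted cells 5 rose and 1 fell. Their shares of rises were near those of all genes, and their shares of falls were lower. Blocking on replicate number as well gave 13 rises and 11 falls in control and 10 and 12 in deleted cells for this list, 9 and 4 against 7 and 4 for coenzyme Q and carriers, and 7 and 4 against 4 and 3 for the tricarboxylic acid cycle. Sco1, a copper chaperone of complex IV, rose by 1.16 and 1.10, and Lrpprc, which stabilises mitochondrial messenger RNA, by 0.94 and 1.03, while Tmem126b, of the complex I assembly complex, fell by 1.32 in control cells. In control cells Lrpprc did not pass with all 12 arrays (limma adjusted p = 0.0798). Among 17 genes of coenzyme Q and mobile carriers 5 rose and 3 fell in control and 4 rose and 3 fell in deleted cells, including cytochrome c (Cycs, 0.84 and 0.88) and Coq4 (1.26 and 1.41), neither of which passed with all 12 arrays (limma adjusted p from 0.0976 to 0.996). Of 17 genes of the tricarboxylic acid cycle 3 rose and 3 fell in control and 2 rose and 1 fell in deleted cells, and Idh2, the mitochondrial NADP-dependent isocitrate dehydrogenase, fell by 1.38 and 1.05. Idh2 was also higher in deleted than in control cells by 0.83 without IgM and 1.16 with it (limma adjusted p = 0.0212 and 0.0156, or 0.219 and 0.214 with all 12 arrays). None of 18 ATP synthase genes was called in either genotype, with medians of -0.04 and -0.02 and 1 and 0 at an unadjusted p under 0.05 in limma, while with replicate number as a block 2 rose and 4 fell in control and 1 rose and 4 fell in deleted cells. None of 13 listed mitochondrially encoded genes was measured.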

How the data were processed

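RNA from 12 samples in 4 groups of 3 was measured on one-colour Affymetrix arrays. The deposited values are log2 expression values that the authors computed by GCRMA according to the submitters' processing notes. This method corrects background from probe sequence, normalizes by quantiles and summarises probes. Its version and settings are not given in the sources used here. Values near the floor of 2.23 have no order, so changes from there are compressed. Precision is limited by the small number of arrays.

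Genes were named through the platform annotation, with symbols updated through gene identifiers on GRCm38.p6. Each gene was represented by its single-gene probe set with the highest mean. Probe sets above 4 on at least 3 arrays were kept, which gave 9293 genes. A linear model with 1 mean per group and a spread shared by all arrays was fitted to each gene in limma 3.58.1 under R 4.3.3. Moderated two-sided p-values were adjusted by the Benjamini-Hochberg method across those 9293 genes, and 0.05 was the threshold. The scripts were checked on simulated data.

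Replicate numbers come from the labels and recur in each group. Arrays that share a number deviated from their group means together, with correlations of 0.551 to 0.783 and 0.174 to 0.801 between genotypes without and with IgM, and of 0.692 to 0.847 and 0.321 to 0.723 between IgM and none in control and deleted cells. Each was over 0.1, the limit set for pairing. The main fit did not use the numbers as pairs, and they entered as a block only in alternative fits. Unless a block is stated, counts, SE and adjusted p come from fits without it. Results of the fit that blocks on replicate number are given beside counts and named members whose call it alters.

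Members and lists were chosen with earlier results of these data known. The text names, per comparison, up to 10 rises and 10 falls past the threshold, or the 4 members with the smallest p where fewer than 4 pass, with core subunits, isoform pairs and the members that missed the filter, and up to 3 genes of each list. Genes named otherwise, such as Cox7c, Ndufb7, some genes of the lists and those of the paired arrays, were chosen after their values were seen. Alternative settings changed the low-value filter, the scaling between arrays, how a probe set stood for its gene, modelling of variance, weighting of arrays, the threshold and omission of arrays.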

Additional observations from a re-analysis of the deposited data

How the results depend on the processing

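Over 28 alternatives the number of members called was most sensitive to deleted IgM replicate 3 and to the replicate number. Without IgM the genotype count was 0 with all arrays (2.85% of all genes), 1 with the replicate block (6.89%) and 3 with the block and that array left out (21.6%). With IgM it was 0 (1.72% of all genes), and 1 with the block and that array left out (13.2%). The median of -0.76 moved to -0.024 there and to 0.051 with array weights. For IgM in control cells the count of 2 (20.7% of all genes) became 28 with the block and that array left out (63.2%). It was 8 with only the groups compared, 14 with array weights, and 1 with array medians subtracted, with the mean of probe sets or at an adjusted p under 0.01. For IgM in deleted cells the count of 1 (19% of all genes) became 12 with the block (36.7%) and 28 with the block and that array left out (53.5%). It was 9 with array weights and 4 at an adjusted p under 0.1. The median of -0.90 moved to -0.15 with the block and that array left out and to -0.11 with weights. The interaction median of -0.86 moved to -0.12 and -0.039 in the same 2 settings. Leaving out arrays gave counts of 0 to 0 for both genotype comparisons and the interaction, 0 to 11 for the IgM response of control cells and 0 to 12 for that of deleted cells. Where no share of all genes is given here or above, none was counted, and such counts are no result about the members. With arrays left out the medians ranged from -0.11 to 0.18 and -1.29 to 0.11 for the genotype comparisons, -0.29 to 0.09 and -1.43 to -0.048 for IgM in control and deleted cells, and -1.40 to 0.027 for the interaction. Sdha reversed in the genotype comparison with IgM, from 0.43 to -0.031, with the mean of probe sets (limma adjusted p = 0.964). That mean takes in a dim Sdha probe set, which read 2.23 on deleted IgM replicate 3 and 5.38 and 5.24 on its group mates. None of the other 19 single-gene differences followed through these alternatives changed sign. The rise of Ndufaf4 with IgM passed in 24 of 25 alternatives in each genotype. Unless the alternative itself leaves out arrays or genes, the cause was not tested. With 3 arrays per group, differences of 1 log2 unit, and larger ones too, could be missed in any member. In the simulated data, which took each gene's spread from all 12 arrays, 25.4% of differences of 1 log2 unit were recovered. For differences of 2 and 4 the shares were 76.1% and 97.0%. Values compressed near the floor add to this for dim members such as Cox6b2.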
